A study of Mus musculus with 13 samples.

Results

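Ribosome footprints of PERK WT mouse embryonic fibroblasts (MEFs) late in thapsigargin (Tg) treatment were compared with footprints early in it. The late side was the libraries of 5 and 8 h and the early side those of 1 and 2 h, so 4 of the 13 libraries of the series enter the comparison and the untreated control does not. The genes were the 10432 of 22406 symbols whose TPM averaged at least 2 across the 10 MEF libraries, and the genes nearest to that limit were Zfp873 at 2.0 and Nudt16 at 1.999. TPM, the unit of RSEM, is a gene's footprint density per coding length as a share of its library. It tells how ribosomes were divided among mRNAs and not how many ribosomes were translating. The WT cells carry the Eif2ak3 gene, which encodes the kinase PERK, and were given 1 µM Tg. MEFs labelled PERK −/− at the same dose and hours (4 libraries) and NIH3T3 cells, a mouse fibroblast line, at 200 nM Tg for 2 and 7 h (2 libraries) serve as independent libraries of the same kind of comparison. All cells were frozen with no cycloheximide. Every time point was 1 library, and the labels do not say whether libraries came from separate cultures or clones. The time points of a side therefore stand in for replicates, the spread holds real change between them, and a p-value here is only a yardstick. An exact permutation test of 2 against 2 libraries cannot go below 0.333.

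Tg blocks the calcium pump of the endoplasmic reticulum (ER), and proteins then misfold in the ER lumen. The unfolded protein response answers through PERK, IRE1 and ATF6. PERK phosphorylates eIF2α, which lowers translation initiation at most mRNAs while that of the transcription factor ATF4 is favoured, and ATF4 and its partner CHOP turn on genes of amino acid supply. IRE1 splices the mRNA of XBP1 and ATF6 is cleaved into a transcription factor, and both turn on chaperones and degradation factors of the ER. As the stress persists, part of the block on translation is lifted.

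In order of time the 4 libraries held 3609292, 2525029, 5617552 and 11178364 expected counts, so that a limit of 3 counts was equal to 0.268 to 1.19 CPM, the counts of a gene scaled to a common library total. Fibroblast markers passed the TPM filter in 12 of 14 cases (not Lum and Fap), with a summed level of 7922 to 8150 TPM. Of 17 markers of epithelium, endothelium, blood and muscle, 2 passed (Krt18 and Kdr). Their summed level was 9.2 to 22.1 TPM, and 7 of the 16 that the tables list, Pecam1 and Ptprc among them, were at 0 in all 4 libraries. Eif2ak3 had 14.4 to 33.3 CPM in the WT Tg libraries and 7.64 to 19.1 CPM in those labelled PERK −/−. Its TPM values overlapped between the genotypes, and gene tables do not show which part of the coding sequence the footprints came from.

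The gene lists were chosen with earlier results of these data known. Among them, lists of amino acid supply and of the ER folding machinery were higher late and immediate-early genes lower. A gene counted as 2-fold higher when, with TPM values under 4 raised to 4, its mean log2 TPM of 5 and 8 h was at least 1 above that of 1 and 2 h and both late values were above both early values, and as 2-fold lower in the mirror case. By this rule 122 genes were higher (1.17% of the genes tested) and 75 lower (0.719%). Many of them had few counts. Of the 122, 78 had 100 or more expected counts in both late libraries. Of the 75, only 25 had as many in both early libraries. The lowest count of a gene in the 4 libraries had a median of 30 for the higher and 38 for the lower genes. The values just inside and outside were 1.002 for Irak1bp1 and 0.998 for Dennd4a on the upper side, and −1.003 for Zfp654 and −0.98 for Dusp5 on the lower side. The median difference over all genes was 0.0003. Late values were both above the early ones, by any amount, for 2853 genes (27.3%) and both below for 2206 genes (21.1%).

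The 122 higher genes together took 6908, 13050.5, 21408 and 23041 TPM at 1, 2, 5 and 8 h, against 5441 in the untreated control. Sums at 5 and 8 h above those at 1 and 2 h are fixed by the 2-fold rule, as is the mirror case for the lower genes. Within a side the sum of the 122 genes was higher at the later hour, and it differed least between 5 and 8 h. The median level of the 122 genes was 7.61, 13.2, 29.3 and 30.2 TPM at the successive hours and 9.65 in the control. The largest step of a gene lay between 1 and 2 h in 69 of them, between 2 and 5 h in 53 and between 5 and 8 h in 0. Over all 10432 genes the most upward step lay there in 4383, 3674 and 2375, with ties given to the earlier step. The 75 lower genes together took 10536, 6607, 3482 and 3343 TPM at the successive hours, with 5895 in the control. Their largest step lay between 1 and 2 h in 26, between 2 and 5 h in 46 and between 5 and 8 h in 3. The difference used by the 2-fold rule takes the step from 2 to 5 h in full and the other steps in part. The step counts of both sets follow in part from that choice. Over all genes the most downward step was not counted. The sums at 5 and 8 h were below the control for the lower genes and above it for the higher genes. In bulk libraries a change in the share of cells that use a gene cannot be told apart from a change per cell.

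The 1 h library weighed most in these calls. Without it, 97 genes were 2-fold higher and 63 lower, and these held 43 of the 122 and 32 of the 75. Against 2 h alone the medians of the 122 and the 75 were 0.86 and −0.90. Without the 2 h library, 315 genes were 2-fold higher and 224 lower. The median GC content of the coding sequence was 56.8% for the higher, 54.6% for the lower and 52.8% for all genes. After a trend on GC content was removed 98 genes were 2-fold higher and 82 lower, 95 and 62 of them in common with the main calls, and the part of GC content in the differences was not tested.

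**Figure D1:**
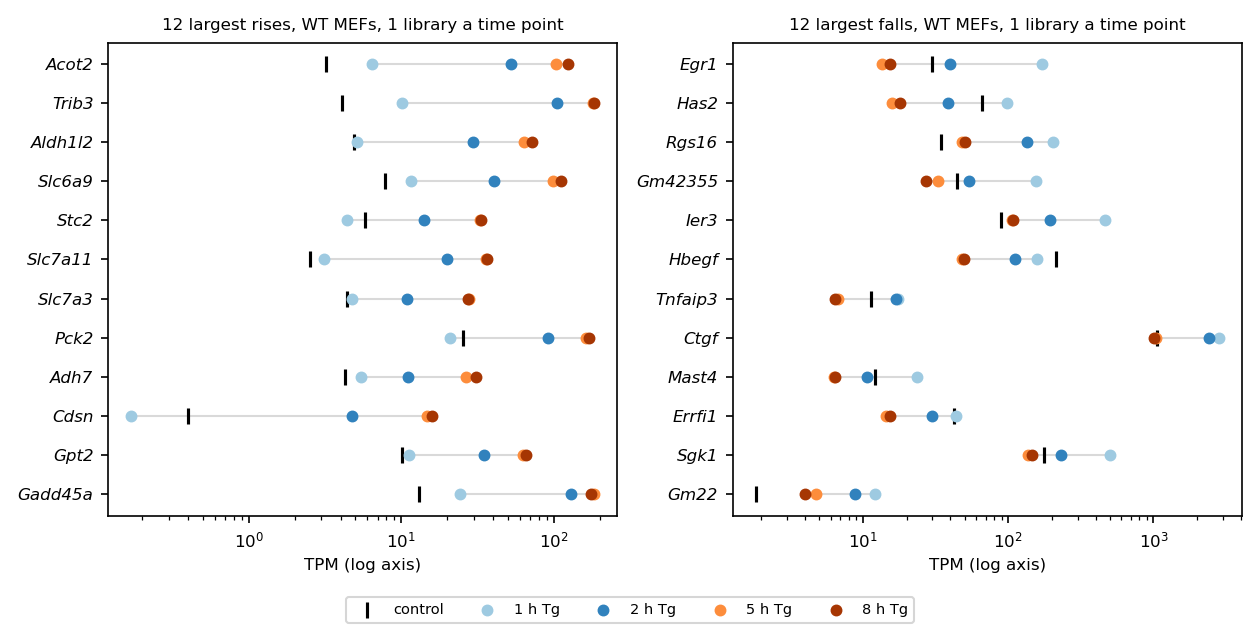
TPM on a log axis in the control (black bar) and in the 4 Tg libraries of WT MEFs for the 12 largest rises (left) and the 12 largest falls (right), 1 point a library. The 5 and 8 h points lie close together and, as the 2-fold rule requires, apart from the 1 and 2 h points. Trib3 runs from 10.1 TPM at 1 h to 183 at 8 h.

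Genes of the ATF4 and CHOP response had the highest median of the gene lists with all 4 libraries. Of the 23 expressed members, 10 were 2-fold higher (Trib3, Stc2, Slc7a11, Atf5, Nupr1, Eif4ebp1, Vldlr, Asns, Cebpb and Jdp2) and 0 lower, beside 1.17% and 0.719% of all genes. In 15 both late values were above both early ones (65.2%, beside 27.3% of all genes). The list's median difference was 0.91 on the log2 scale, beside 0.0003 for all genes. The median step was 1.56 from 1 to 2 h, 0.46 from 2 to 5 h and 0.02 from 5 to 8 h. Without the 1 h library the median was 0.49, below the 0.56 of the amino acid enzymes, and 2 members were 2-fold higher, and without the 2 h library the median was 1.66. Much of the list's difference was therefore that between 1 and 2 h.

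Trib3 (chr2:152337422-152344032, GENCODE on GRCm38, the mm10 assembly), a pseudokinase that restrains ATF4 and AKT, had 10.1, 105, 181 and 183 TPM at 1, 2, 5 and 8 h and 4.12 in the control. The difference was 2.48 on the log2 TPM scale, a 5.58-fold rise, and against 2 h alone it was 0.79. The edgeR quasi-likelihood test gave 1.71 ± 0.73 (SE) with an adjusted p of 0.258. The late libraries were both above the early ones, but the early pair lay further apart than the sides did. Stc2, a secreted glycoprotein of calcium and phosphate balance, had 4.43, 14.1, 32.9 and 33.3 TPM and was 2.07 higher on the log2 scale. Slc7a11 (chr3:49892526-50443614), the cystine importer that feeds glutathione synthesis, had 3.13, 19.98, 35.8 and 36.4 TPM and was 2.01 higher, but 0.85 against 2 h alone. Atf5, a transcription factor related to ATF4, had 20.9, 67.3, 100.2 and 117 TPM and was 1.53 higher, but 0.69 against 2 h alone. Eif4ebp1, which encodes an inhibitor of cap-dependent initiation, went from 125 and 387 TPM to 533 and 559, a difference of 1.31, of which 0.49 remained against 2 h.

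The regulators at the head of this branch had smaller differences, at levels far above the control. Atf4 (chr15:80255184-80257541) had 487, 551, 569 and 576 TPM against 34.5 in the control. Its late values were both above its early ones by only 0.14 on the log2 scale, with a 95% counting interval of 0.09 to 0.21 for the pooled counts. Ddit3, the gene of CHOP, had 272, 442, 564 and 580 TPM against 13.8 in the control, a difference of 0.72 that did not reach 2-fold (edgeR 0.68 ± 0.22, adjusted p = 0.172). Counting intervals of this kind, from the exact conditional method, cover counting error only.

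The late libraries were also high for enzymes that make amino acids. Among 23 expressed genes of serine, one-carbon and other amino acid synthesis, 9 were 2-fold higher (Aldh1l2, Pck2, Gpt2, Cth, Psph, Asns, Pycr1, Aldh18a1 and Phgdh) and 0 lower. Late values were above the early ones in 18 and below in 2 (78.3% and 8.7%, beside 27.3% and 21.1% of all genes). The median difference was 0.84, and 0.56 against 2 h alone. Aldh1l2 (chr10:83487450-83534140), a mitochondrial enzyme of the folate cycle, had 5.16, 29.7, 63.4 and 72.4 TPM and rose by 2.45 on the log2 scale. Pck2 (chr14:55540266-55551242), the mitochondrial phosphoenolpyruvate carboxykinase, had 21.0, 91.8, 164 and 169 TPM and rose by 1.92. At 1 h both were near their control levels of 4.90 and 25.6 TPM. Gpt2, a mitochondrial alanine transaminase, had 11.3, 35.1, 62.9 and 65.5 TPM, and Cth, which makes cysteine from cystathionine, had 17.3, 45.0, 79.5 and 91.1 TPM. Their differences were 1.69 and 1.61, and 0.87 and 0.92 against 2 h alone. For Pck2 that value was 0.86, so of these enzymes only Aldh1l2, at 1.19, was 2-fold higher also without the 1 h library.

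Amino acid transporters were more mixed. Of 20 expressed, 6 were 2-fold higher (Slc6a9, Slc7a11, Slc7a3, Slc7a1, Slc3a2 and Slc7a5) and 0 lower, 13 had late values above the early ones and 2 below, and the median difference was 0.40. Slc6a9 (chr4:117834506-117875198), a glycine transporter, had 11.6, 40.8, 98.2 and 112 TPM with 7.80 in the control. Slc7a3, which carries arginine and other cationic amino acids, had 4.73, 10.9, 27.96 and 27.3 TPM. They rose by 2.27 and 1.94 on the log2 scale, and by 1.36 and 1.34 against 2 h alone. Slc7a1, another cationic transporter, had 59.2, 179, 231 and 228 TPM, so its 2 h value lay nearer to the late ones, and its difference of 1.16 became 0.36 without the 1 h library.

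Cytosolic aminoacyl-tRNA synthetases, which charge tRNAs with amino acids, were shifted as a list but by less. Of 23 genes 1, Wars, was 2-fold higher, and the median difference was 0.51 (0.27 against 2 h alone). In 17 both late values were above the early ones and in 1 both below (73.9% and 4.35%, beside 27.3% and 21.1% of all genes). Wars, the tryptophanyl-tRNA synthetase, had 54.8, 116, 209 and 225 TPM, a rise of 1.44, or 0.90 against 2 h alone. Gars, Aars and Cars, for glycine, alanine and cysteine, were 0.89, 0.87 and 0.82 higher and so missed the 2-fold rule.

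Several of the 12 largest rises lay outside these lists. Acot2 (chr12:83987861-83993873), a mitochondrial acyl-CoA thioesterase, had the largest difference of all genes that had 100 or more expected counts in each late library. It had 6.42, 52.5, 103.3 and 123.3 TPM, and the difference of 2.62 had an edgeR adjusted p of 0.176. Gadd45a, a growth arrest and DNA damage gene, had 24.2, 130, 184 and 174 TPM and a difference of 1.68, of which 0.46 remained without the 1 h library. Adh7, an alcohol dehydrogenase, had 5.43, 11.1, 26.4 and 30.8 TPM (1.88 higher), and Cdsn, a cell adhesion protein of cornified skin, had 0.17, 4.79, 14.82 and 16.02 TPM (1.82 higher with the floor of 4 TPM). At 1 h Cdsn was represented by 1 expected count, and its pooled counts gave 2.90 with a counting interval of 2.29 to 3.59. Hmox1, the heme oxygenase of the antioxidant list, Sqstm1, the autophagy receptor p62, and Lonp1, a protease of the mitochondrial matrix, were 1.29, 1.11 and 1.28 higher. Against 2 h alone they were 0.79, 0.68 and 0.78 higher and passed the 2-fold rule no longer. Of the 30 antioxidant genes 3 were 2-fold higher, and 0 without the 1 h library, and the median was 0.05. Of the 29 autophagy genes 1 was, 18 had late values above the early ones and 3 below (62.1% and 10.3%, beside 27.3% and 21.1% of all genes). The autophagy median was 0.26, or 0.13 without the 1 h library.

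The ATF4 site known as the CARE was searched in promoter windows, from 250 bases before to 50 after each RefSeq start on GRCm38.p6, as the letters TGATGNAA on either strand. It was present in windows of 12 of the 100 higher genes that had a window (12%), 2 of 46 lower genes (4.35%) and 219 of 8388 genes tested (2.61%). In the ATF4 and CHOP list it was present for 9 of 21 genes (42.9%) and among the amino acid enzymes for 4 of 18 (22.2%). The former list was made of genes of that response, so its share is no independent measure. Other motifs were searched too. The AP-1 site (TGANTCA) was present for 9% of the higher, 10.9% of the lower and 5.75% of all genes. For the CRE (TGACGTCA) the shares were 2%, 4.35% and 3.79%, and 12.8% in the immediate-early list. A match describes letters and is not a measured site. Windows are shown as examples of the amino acid and ATF4 genes described above. These are the windows of 3 higher genes with a CARE match and of the synthetase Aars, whose window holds a pair of CARE matches. They are written 5′ to 3′ on the gene's strand from RefSeq, with the matches in capitals, for Trib3 at chr2:152344011-152344310 (minus strand), Slc7a11 at chr3:50443564-50443863 (minus), Pck2 at chr14:55540016-55540315 (plus) and Aars at chr8:111033592-111033891 (plus).
Trib3: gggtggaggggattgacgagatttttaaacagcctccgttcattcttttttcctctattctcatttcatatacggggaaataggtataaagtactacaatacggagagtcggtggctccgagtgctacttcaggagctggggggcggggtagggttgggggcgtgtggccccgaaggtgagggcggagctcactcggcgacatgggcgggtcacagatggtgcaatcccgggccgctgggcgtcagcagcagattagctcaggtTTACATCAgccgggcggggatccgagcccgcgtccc
Slc7a11: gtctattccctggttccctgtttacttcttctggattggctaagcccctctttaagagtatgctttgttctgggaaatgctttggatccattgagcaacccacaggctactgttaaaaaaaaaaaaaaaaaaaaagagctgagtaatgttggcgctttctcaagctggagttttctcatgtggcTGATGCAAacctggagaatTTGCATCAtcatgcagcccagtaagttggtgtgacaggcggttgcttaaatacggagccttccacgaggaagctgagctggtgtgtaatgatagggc
Pck2: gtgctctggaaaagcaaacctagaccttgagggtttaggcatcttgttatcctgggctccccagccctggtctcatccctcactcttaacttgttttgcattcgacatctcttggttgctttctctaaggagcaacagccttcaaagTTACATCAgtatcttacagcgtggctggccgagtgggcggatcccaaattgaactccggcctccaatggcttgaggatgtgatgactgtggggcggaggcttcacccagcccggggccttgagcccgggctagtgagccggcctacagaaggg
Aars: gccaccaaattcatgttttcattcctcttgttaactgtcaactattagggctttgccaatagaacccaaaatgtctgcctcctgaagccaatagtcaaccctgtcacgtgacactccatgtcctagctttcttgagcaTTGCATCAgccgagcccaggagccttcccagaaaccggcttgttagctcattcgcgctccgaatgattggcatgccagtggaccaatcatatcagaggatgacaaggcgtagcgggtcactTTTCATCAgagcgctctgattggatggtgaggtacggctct

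The ER's own folding machinery formed another group of higher genes, with smaller differences in genes that were already abundant. Of 29 lumenal chaperones and co-chaperones, 4 were 2-fold higher (Sdf2l1, Hyou1, Creld2 and Hspa5). In 22 both late values were above both early ones and in 0 both below (75.9% and 0%, beside 27.3% and 21.1% of all genes). The median was 0.40 on the log2 scale, and 0.40 also against 2 h alone, with steps of 0.04 from 1 to 2 h, 0.35 from 2 to 5 h and −0.02 from 5 to 8 h. Without the 1 h library 1 member was 2-fold higher, the isomerase Fkbp14, named after its values were seen, and the 4 genes above were not. The largest median step of this list thus lay between 2 and 5 h and that of the ATF4 and CHOP list between 1 and 2 h. Together the 29 genes took 12163, 14183, 20531 and 20511 TPM at the successive hours and 12887 in the control, so that at 1 h their sum was not above the control. Hspa5, whose values follow, held a large part of this sum and was already above its control at 1 h. The median level of the list was 95.3, 110, 156 and 154 TPM, with 114 in the control.

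Hspa5 (chr2:34771970-34777547), which encodes the HSP70 chaperone BiP, had 2624, 4462, 7253 and 7149 TPM against 1357 in the control. It was 2.10-fold higher late, a difference of 1.07, with 0.69 against 2 h alone (edgeR 0.99 ± 0.21, adjusted p = 0.111). Its pooled counts gave 1.08 with a counting interval of 1.06 to 1.09, which is narrower than the spread between its time points. Sdf2l1 (chr16:17130138-17132383), a partner of BiP and its co-chaperones, had 55.4, 134, 240 and 279 TPM and was 1.59 higher. Hyou1, a nucleotide exchange factor of BiP, had 142, 234, 387 and 416 TPM, and Creld2 (chr15:88819646-88826683), a disulfide isomerase-like protein, had 104, 162, 268 and 289 TPM. Against 2 h alone Sdf2l1, Hyou1 and Creld2 were 0.95, 0.78 and 0.78 higher, which is under 2-fold. Hyou1 and Creld2 were at about their control levels of 146 and 94.2 TPM at 1 h. Dnajc3, a co-chaperone that also inhibits PERK, had 73.9, 106, 156 and 154 TPM, a difference of 0.80 that missed the 2-fold rule.

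Among 18 expressed disulfide isomerases and ER oxidases, 1 was 2-fold higher, and the median was 0.27. Late values were above the early ones in 12 and below in 2 (66.7% and 11.1%, beside 27.3% and 21.1% of all genes). Ero1l, the oxidase that recharges protein disulfide isomerase, had 23.1, 32.6, 58.4 and 53.0 TPM and was 1.02 higher, with 0.99 after scaling by TMM factors, and 0.77 against 2 h alone, so it lies at the limit of the rule. Its relative Ero1lb and the isomerases Pdia4 and Pdia6 were 0.99, 0.85 and 0.70 higher.

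ER-associated degradation, which returns misfolded proteins to the cytosol for the proteasome, had 31 members. Of these 4 were 2-fold higher (Derl3, Sel1l, Herpud1 and Syvn1), of which Derl3 alone also without the 1 h library. Derl3 rested on few counts, with 5, 8, 38 and 82 expected counts at the successive hours. Its levels were 3.0, 4.9, 11.56 and 12.94 TPM, so the early values lay near the floor of 4 TPM. In this list 22 had both late values above the early ones and 0 both below (71.0% and 0%, beside 27.3% and 21.1% of all genes). The list's median was 0.39. Sel1l (chr12:91806043-91849157) and Syvn1 (chr19:6046576-6053712), the adaptor and the ubiquitin ligase of the membrane channel, had 44.9, 83.1, 144 and 155 TPM and 55.9, 101, 152 and 162 TPM. Herpud1 (chr8:94386438-94395377), a membrane scaffold of the same complex, had 108, 462, 534 and 535 TPM with 25.6 in the control. Most of its difference of 1.26 was the step between 1 and 2 h, since 0.21 remained against 2 h alone, whereas Sel1l had 0.84 of its 1.29 and Syvn1 0.64 of its 1.06, both then under 2-fold.

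Proteins that bring others into and out of the ER had smaller differences, mostly upwards. Of 45 genes of translocation, signal peptide cleavage and N-glycosylation 0 were 2-fold apart, but 32 had late values above the early ones and 2 below, with a median of 0.24. Of 47 coat proteins and cargo receptors between ER and Golgi 0 were 2-fold apart, 35 were above and 3 below, and the median was 0.23. The shares above, 71.1% and 74.5%, stand beside 27.3% of all genes, and those below, 4.44% and 6.38%, beside 21.1%. Alg12, a mannosyltransferase of the glycan precursor, had 11.7, 9.17, 18.0 and 21.7 TPM and Tmed3, a cargo receptor, 34.7, 43.0, 69.4 and 74.2 TPM. They were 0.93 and 0.89 higher.

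Of the 10 sensors of the response and their transcription factors, 1 was 2-fold higher, 6 had late values above the early ones and 1 below. It was Eif2ak3 itself (chr6:70844515-70905245), with 8.49, 6.20, 14.0 and 15.7 TPM, a difference of 1.03 resting on 48 to 365 expected counts a library. Under CPM in place of TPM it was 0.99, so the call is at its limit. Xbp1 (chr11:5520659-5525893) had 83.5, 190, 180 and 174 TPM against 29.2 in the control. Its 2 h value was the highest, the sides overlapped, and the difference of 0.49 was −0.10 against 2 h alone. Atf6 and Creb3l1, a relative of ATF6, were 0.65 and 0.61 higher.

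The ER stress element (ERSE), to which ATF6 and XBP1 are known to bind, was searched as CCAAT and CCACG with 9 bases of any kind between them, on either strand of the same windows. It was found for 6 of 24 chaperone genes with a window (25%), 2 of 24 genes of ER-associated degradation (8.33%) and 16 of 8388 genes tested (0.191%). Of the higher genes 4 of 100 held it (4%), and of the lower genes 0 of 46. The windows of Hspa5 at chr2:34771840-34772139, Creld2 at chr15:88819396-88819695, Syvn1 at chr19:6046326-6046625 and Dnajc3 at chr14:118937682-118937981, all on the plus strand, are shown with the match in capitals as the chaperone and degradation genes described above. The match of Creld2 is also in the window of Alg12, which starts on the opposite strand nearby.
Hspa5: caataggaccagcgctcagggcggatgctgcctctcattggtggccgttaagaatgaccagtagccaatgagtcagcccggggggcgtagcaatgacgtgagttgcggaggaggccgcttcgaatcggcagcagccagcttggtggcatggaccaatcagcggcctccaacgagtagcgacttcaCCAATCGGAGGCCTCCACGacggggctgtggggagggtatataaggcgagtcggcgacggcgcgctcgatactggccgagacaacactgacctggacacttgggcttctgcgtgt
Creld2: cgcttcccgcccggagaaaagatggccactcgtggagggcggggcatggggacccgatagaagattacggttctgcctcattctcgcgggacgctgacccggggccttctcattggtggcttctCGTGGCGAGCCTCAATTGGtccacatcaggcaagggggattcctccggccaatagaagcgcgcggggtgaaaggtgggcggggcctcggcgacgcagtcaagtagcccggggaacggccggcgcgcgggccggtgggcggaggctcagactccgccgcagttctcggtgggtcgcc
Syvn1: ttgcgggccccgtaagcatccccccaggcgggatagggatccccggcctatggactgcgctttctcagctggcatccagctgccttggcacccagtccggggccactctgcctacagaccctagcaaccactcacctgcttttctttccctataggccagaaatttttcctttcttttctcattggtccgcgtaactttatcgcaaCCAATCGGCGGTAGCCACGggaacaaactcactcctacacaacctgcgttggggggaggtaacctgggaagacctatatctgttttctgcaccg
Dnajc3: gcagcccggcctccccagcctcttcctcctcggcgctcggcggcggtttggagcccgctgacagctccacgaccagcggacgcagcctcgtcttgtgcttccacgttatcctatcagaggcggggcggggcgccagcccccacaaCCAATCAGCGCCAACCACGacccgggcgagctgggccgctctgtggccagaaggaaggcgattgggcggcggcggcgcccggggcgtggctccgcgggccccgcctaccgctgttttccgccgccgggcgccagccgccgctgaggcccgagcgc

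**Figure D2:**
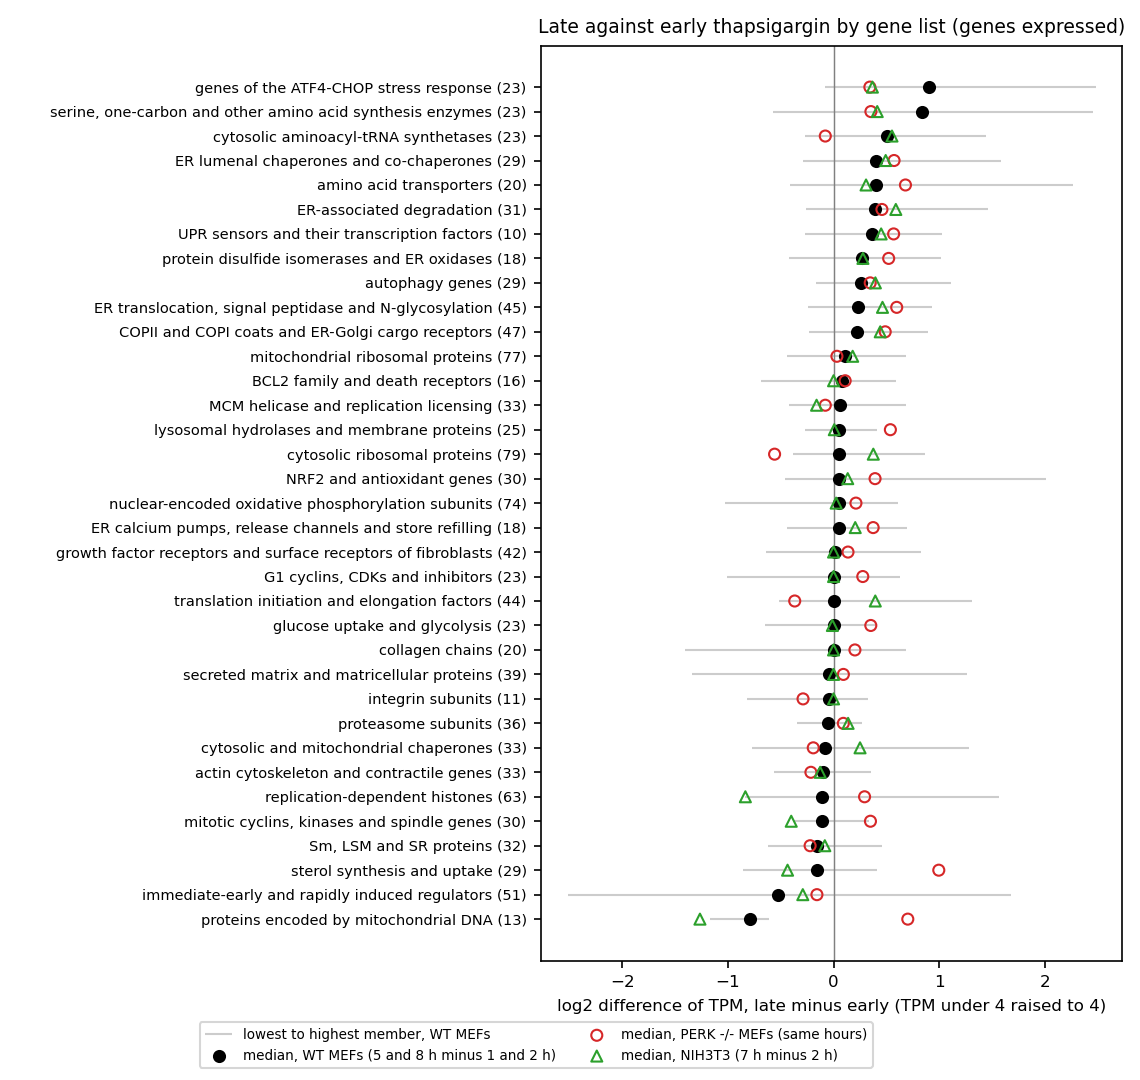
Median log2 difference, late minus early, of each gene list in WT MEFs (filled circles), in MEFs labelled PERK −/− at the same hours (open circles) and in NIH3T3 cells at 7 minus 2 h (triangles), with the range of members in WT MEFs as a grey line. ATF4 and CHOP genes have the highest WT median, 0.91, and immediate-early genes (−0.52) and proteins of mitochondrial DNA (−0.79) the lowest.

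**Figure D3:**
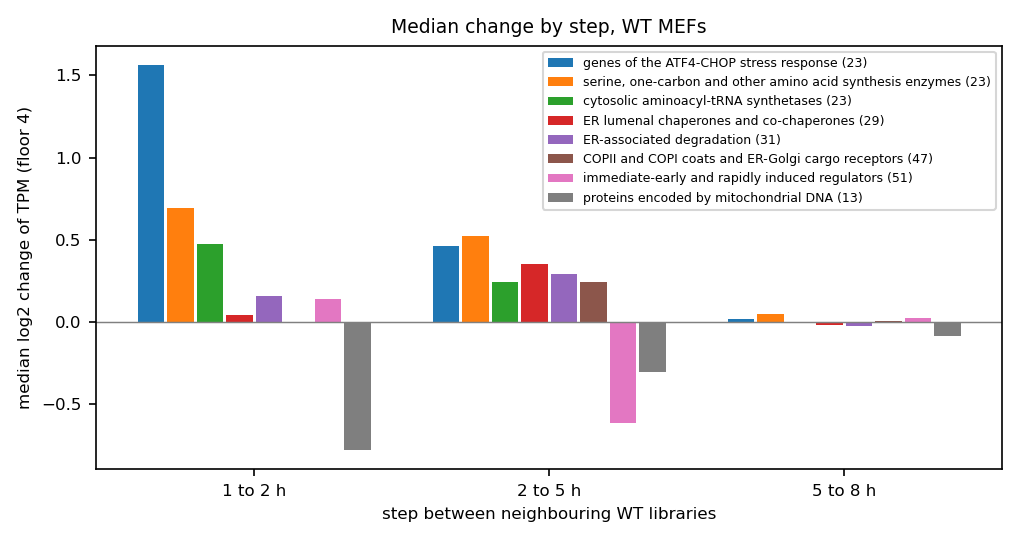
Median log2 change of TPM between neighbouring WT libraries for 8 lists, 1 bar a list, with the number of genes in brackets. From 1 to 2 h the ATF4 and CHOP list changed by 1.56, from 2 to 5 h the chaperones by 0.35 and the immediate-early list by −0.61, and from 5 to 8 h all bars are near 0.

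Genes of the immediate response to growth factors and stress were lower late. Of 51 expressed members, 8 were 2-fold lower (Egr1, Ier3, Ctgf, Errfi1, Id1, Btg2, Fosb and Dusp6) and 1 higher, Gadd45a. Both late values were below the early ones in 29 and above in 4 (56.9% and 7.84%, beside 21.1% and 27.3% of all genes). The list's median was −0.52, beside 0.0003 for all genes. The median step was 0.14 from 1 to 2 h and −0.61 from 2 to 5 h, and the median was −0.66 without the 1 h library, with 10 members 2-fold lower, and −0.30 without the 2 h library. The list's sum was 7849 and 8418 TPM early and 4778 and 4814 TPM late, with 3862 in the control.

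Egr1, a zinc finger transcription factor, had the largest fall, with 171, 39.5, 13.5 and 15.3 TPM against 29.9 in the control. It fell by 2.52 on the log2 scale, and by 1.46 against 2 h alone. Its early libraries were far apart, and edgeR gave −2.92 ± 0.60 with an adjusted p of 0.105. Ier3, an early response gene of cell survival, had 461, 195, 106 and 108 TPM (−1.49, and −0.86 against 2 h alone). Sgk1, a kinase of the AKT family, had 499, 233, 136 and 146 TPM (−1.27, and −0.72 against 2 h alone). For these genes the 1 h library was the high one and the 2 h library lay between.

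Other genes were high at both early hours. Ctgf (chr10:24595442-24598683), a matricellular growth factor, had 2819, 2397, 1045 and 1008 TPM, with 1058 in the control. It fell by 1.34, and edgeR gave −1.38 ± 0.10 with an adjusted p of 0.035. Tnfaip3 (chr10:19000910-19015657), an inhibitor of NF-κB signalling, had 17.3, 16.9, 6.75 and 6.37 TPM (edgeR −1.41 ± 0.14, adjusted p = 0.037). Rgs16 (chr1:153740349-153745468), a regulator of G protein signalling, had 203, 134, 47.8 and 50.1 TPM (edgeR −1.83 ± 0.20, adjusted p = 0.049). Hbegf, a ligand of the EGF receptor, had 157, 111, 47.8 and 49.3 TPM, all below the 213 of the control (edgeR −1.52 ± 0.18, adjusted p = 0.049). Separate early and late values were a condition of the 2-fold rule for each of them. The late pairs were close, as were the early pairs of Ctgf and Tnfaip3. The early values lay further apart for Rgs16 (203 and 134 TPM) and Hbegf (157 and 111 TPM). Errfi1, an inhibitor of the EGF receptor, had 43.6, 30.1, 14.5 and 15.3 TPM and fell by 1.28. Has2, the hyaluronan synthase, was instead high mainly at 1 h, with 98.0, 38.3, 15.8 and 18.0 TPM. It fell by 1.86, and by 1.18 against 2 h alone. The remaining genes among the 12 largest falls were Mast4, a kinase, and the predicted genes Gm42355 and Gm22, at −1.31, −1.62 and −1.24, and at −0.74, −0.86 and −1.01 against 2 h alone, where the first pair was no longer 2-fold lower.

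The edgeR test over the 4 libraries, with an adjusted p under 0.05, called 2 genes higher (0.0192%) and 18 lower (0.173%), and 2050 genes had an unadjusted p under 0.05, 979 higher and 1071 lower. DESeq2 called 93 and 119. The higher pair was Wfs1, an ER membrane protein of calcium balance, with 11.6, 15.4, 32.7 and 33.1 TPM, and the histone gene Hist1h2bg with 776, 864, 1959 and 2999 TPM (both adjusted p = 0.049). Hist1h2bg has near-identical copies among which the counting may divide reads. Of the 18 lower genes 10 were also 2-fold lower. These were the 4 given above, Ptgs2, the inducible cyclooxygenase, with 635, 567, 298 and 280 TPM, Lif, a cytokine, with 49.9, 32.8, 11.5 and 11.2 TPM, Id1, Phlda1, Ccbe1 and Irs1. Among the others were Thbs1, Cyr61, Fosl1, Klf6, Plk2, Fbln2 and Hist4h4, with log2 TPM differences of −0.93 to −0.74. Wfs1 and the genes named only here were singled out after their values were seen.

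Ctgf, Cyr61 and Thbs1 are secreted or matricellular targets of growth factor and actin signalling. In the matrix list, which holds Ctgf, 1 of 39 genes was 2-fold higher (Igfbp4) and 3 lower (Ctgf, Nid1 and Angptl2). Nid1, a basement membrane protein, had 99.8, 63.2, 38.6 and 35.5 TPM, below its control of 170, and Igfbp4, which binds insulin-like growth factors, had 11.3, 19.95, 33.2 and 39.2 TPM. Their differences of −1.10 and 1.27 were −0.77 and 0.85 against 2 h alone. The median of the list was −0.04, with late values above the early ones in 12 genes (30.8%) and below in 13 (33.3%). Over all genes these shares were 27.3% and 21.1%. Of 33 actin and contractile genes 21 had late values below the early ones (63.6%) and 4 above (12.1%), with a median of −0.10. Collagens (median −0.0003 over 20 genes) and surface receptors (0.02 over 42) had medians near that of all genes. Of 11 integrin subunits 5 had late values below the early ones (45.5%, beside 21.1% of all genes) and 1 above (9.09%, beside 27.3%). The integrin median of −0.04 depended on the setting, with −0.35 on log2(TPM + 1), −0.19 without the 1 h library and −0.16 after removal of the GC trend.

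Many lists that serve growth had medians close to that of all genes. The median was 0.05 for 79 cytosolic ribosomal proteins, 0.11 for 77 mitochondrial ribosomal proteins and 0.05 for 74 nuclear-encoded subunits of oxidative phosphorylation. It was 0.0021 for 44 translation factors, −0.05 for 36 proteasome subunits and 0.06 for 25 lysosomal proteins. Several still leaned up or down by small amounts. Both late values were above the early ones in 27.3% of all genes and below in 21.1%. These shares were 48.0% and 4.0% for lysosomal proteins, 42.9% and 15.6% for mitochondrial and 43.0% and 20.3% for cytosolic ribosomal proteins. They were 32.4% and 28.4% for oxidative phosphorylation, 27.3% and 31.8% for translation factors and 22.2% and 44.4% for the proteasome. BCL2 family and death receptor genes had 4 of 16 above and 4 below (25.0% each), near the 27.3% and 21.1% of all genes. Their median of 0.08 became −0.07 with CPM in place of TPM. Among the G1 genes Ccnd1, the gene of cyclin D1, had 116, 86.2, 47.5 and 51.8 TPM. It was 1.01 lower on the log2 scale, close to the limit of the rule, and −0.80 without the 1 h library. Uqcrh, a subunit of respiratory complex III, had 695, 309, 225 and 229 TPM and a difference of −1.03, of which −0.45 remained against 2 h alone. The lists of sterol synthesis (−0.16), splicing proteins (−0.15), mitotic genes (−0.11, but 0.02 without the 1 h library), histones (−0.11) and cytosolic and mitochondrial chaperones (−0.08) had more members with late values below the early ones than above. Without the 1 h library the sterol and splicing medians were −0.04 and −0.06, and without the 5 h library that of the histones was −0.04, while after removal of the GC trend the histone median was −0.25.

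Proteins encoded by mitochondrial DNA formed a list added after its values were seen. All 13 had both late values below both early ones, beside 21.1% of all genes, with differences of −1.17 to −0.61. Their sum was 11673, 6563, 5248 and 4892 TPM at the successive hours, against 4657 in the control. The 1 h library stood out and the late ones lay near the control. Without the 1 h library the median of −0.79 became −0.37, and it was −0.49 after a trend on GC content was removed. In the libraries labelled PERK −/− the sums were 4164, 4620, 6170 and 7353 TPM and all 13 differences were positive, beside 61.0% of all genes. In NIH3T3 cells the sum was 20293 TPM at 2 h and 8111 at 7 h, and all 13 were negative, beside 35.8% of all genes.

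**Figure D4:**
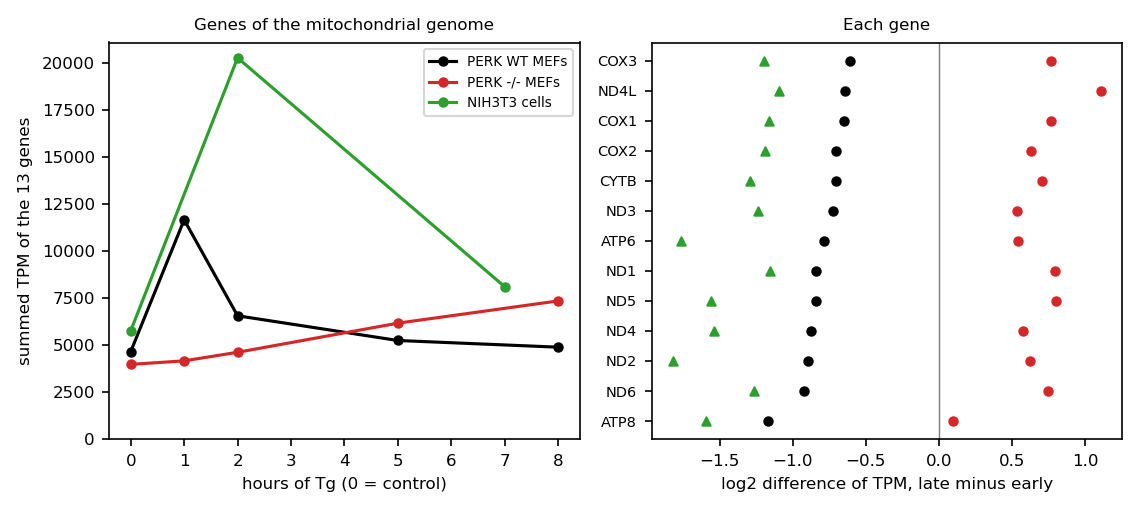
Left, summed TPM of the 13 genes of the mitochondrial genome against hours of Tg (0 is the control) for the 3 kinds of cells, 1 library a point. Right, the log2 difference, late minus early, of each gene in WT MEFs (black circles), MEFs labelled PERK −/− (red circles) and NIH3T3 cells (green triangles, 7 minus 2 h), with all WT and NIH3T3 points below 0 and all PERK −/− points above it.

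The same late against early comparison in the MEFs labelled PERK −/− rested on other libraries. There 610 genes were 2-fold higher (5.85%) and 136 lower (1.3%). Of the 122 genes higher in WT, 103 were also above 0 in PERK −/− MEFs (84.4%, beside 61.0% of all genes), with a median of 0.59 and 27 past the 2-fold rule. Of the 75 lower genes, 46 were below 0 (61.3%, beside 34.2% of all genes), with a median of −0.15 and 11 past the rule. The levels were far lower for some of the higher genes, although their differences had the same sign. Trib3 had 3.16, 2.07, 5.30 and 15.5 TPM there and Aldh1l2 3.75, 2.92, 6.87 and 16.7 TPM. Atf4 had 25.1, 34.2, 60.2 and 58.2 TPM and Ddit3 8.28, 14.2, 10.8 and 13.4 TPM, against 487 to 576 and 272 to 580 TPM in WT. Hspa5 had 1975, 2515, 3890 and 4376 TPM, a difference of 0.89 beside 1.07 in WT. The chaperone list had a median of 0.57 beside 0.40 in WT, and ER-associated degradation 0.46 beside 0.39. Isomerases and oxidases had 0.52 beside 0.27, translocation and glycosylation genes 0.60 beside 0.24 and ER-Golgi genes 0.49 beside 0.23. Amino acid transporters had 0.68 beside 0.40, but ATF4 and CHOP genes 0.34 beside 0.91 and amino acid enzymes 0.35 beside 0.84. The median of all genes in PERK −/− MEFs was 0.13. The tRNA synthetases, with a median of 0.51 in WT, had −0.08, and 11 of 23 were positive.

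The difference between the genotypes in this shift was tested with the edgeR interaction over the 8 Tg libraries. It called 25 genes with a higher shift in WT (0.24%) and 27 with a lower one (0.259%), and 1988 genes had an unadjusted p under 0.05. DESeq2 called 236 and 216. With the hour as a block, so that WT and PERK −/− libraries were paired by hour, edgeR called 46 and 76, and 51 of the main calls were among them. For Trib3 the interaction was −0.16 ± 1.10 and for Hspa5 0.26 ± 0.30, so the SE exceeded the value. The counts depended on single libraries. Without the WT 2 h, PERK −/− 5 h or PERK −/− 8 h library the test called 151 to 410 genes with a higher shift and 220 to 362 with a lower one, and without any of the other 5 libraries it called 0 and 0 to 2.

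Sterol synthesis was the list with most interaction calls, 7 of 29 genes with a lower shift in WT. The list's median was −0.16 in WT, 1.00 in PERK −/− MEFs and −0.44 in NIH3T3 cells. Nsdhl (chrX:72918557-72958514), a dehydrogenase of the cholesterol pathway, had 93.0, 68.5, 49.4 and 49.4 TPM in WT and 61.5, 63.0, 171 and 202 TPM in PERK −/− MEFs (interaction −2.19 ± 0.23, adjusted p = 0.0086). Msmo1 and Lss, enzymes of the same pathway, had interactions of −1.63 and −1.54, and Srebf2, the transcription factor that drives it, −1.27. For Nsdhl the late values were below the early ones in WT MEFs and above them in PERK −/− MEFs. Of the genes with a higher shift in WT, 3 were cytosolic ribosomal proteins. Rpl13a (chr7:45125558-45128761) had 1289, 1544, 1917 and 1915 TPM in WT and 2009, 1860, 1449 and 1340 TPM in PERK −/− MEFs (interaction 1.01 ± 0.19, adjusted p = 0.0499). Of 79 ribosomal protein genes 0 had a positive difference in PERK −/− MEFs, where the median was −0.56. Apart from Nsdhl and Rpl13a, genes of this test were named after their values were seen.

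NIH3T3 cells gave values at 7 against 2 h, with 1 library each and so no test. In this line 418 genes were at least 2-fold higher (4.01%) and 507 lower (4.86%). Of the 122 genes higher in WT MEFs, 84 were above 0 (68.9%, beside 49.5% of all genes), 17 below, and 21 had both values under 4 TPM, and 42 were at least 2-fold higher. Of the 75 lower genes 45 were below 0 (60%, beside 35.8%), 11 above, 19 under 4 TPM, and 22 at least 2-fold lower. The share of higher genes was 58.8% with a floor of 1 TPM and 78.3% for genes 3-fold higher in MEFs. Hspa5 had 5008 TPM at 2 h and 12211 at 7 h, Sdf2l1 234 and 628 TPM, and Trib3 140 and 295 TPM, while Egr1 had 74.9 and 23.5 TPM. Atf4 and Ddit3 went the other way than in MEFs, with 1491 and 527 TPM and 1086 and 383 TPM. All 23 tRNA synthetases were higher at 7 h, with a median of 0.55.

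**Figure D5:**
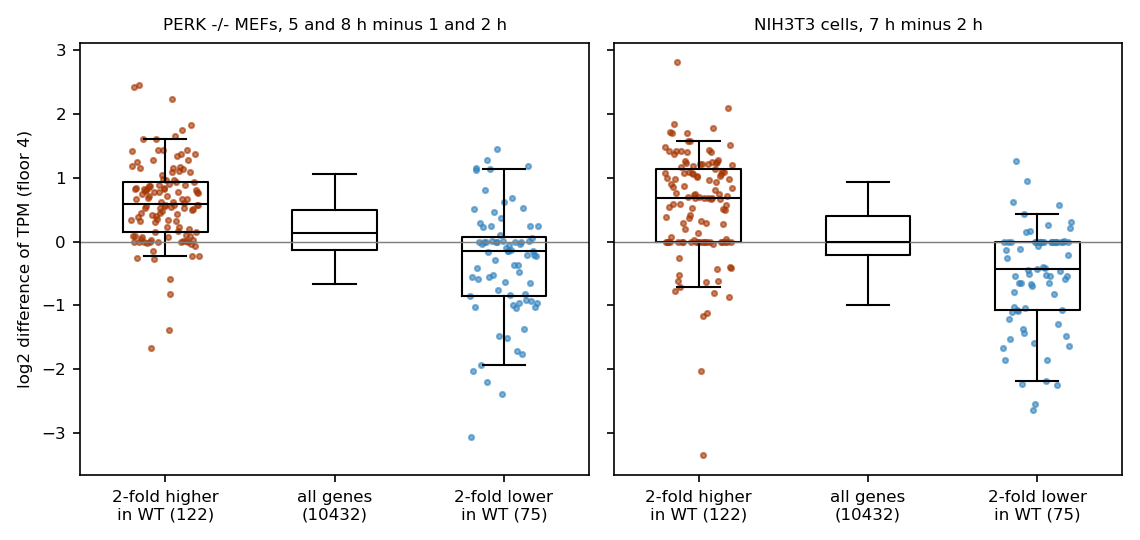
Log2 difference of TPM, late minus early, in MEFs labelled PERK −/− (left) and NIH3T3 cells (right) for the genes 2-fold higher in WT MEFs (red points), all genes and the genes 2-fold lower (blue points). Boxes show the median and quartiles and whiskers the 5th and 95th percentiles, and the medians of the higher genes are 0.59 and 0.68 and those of the lower genes −0.15 and −0.44.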

How the data were processed

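Mouse ribosome footprints were sequenced in 13 libraries, 1 per condition, and the sides, groups and hours were taken from the sample labels. The authors kept footprints of 22 to 34 nt, used STAR to remove reads of rRNA and tRNA, and aligned the others by Bowtie2 to mm10 RefSeq coding sequences from which 30 nt had been clipped at either end, leaving out transcripts shorter than 100 nt. RSEM then gave per gene the expected counts and the TPM values that the authors deposited. Expected counts are not scaled between libraries and were rounded here to whole numbers where needed. TPM is scaled within a library. Versions of these tools are not given in the sources used here. Of all symbols 25 had been turned into dates and were left as they were. Intervals and floors cover counting error only.

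Fold calls used TPM with a floor of 4. The test was edgeR 4.0.16 (quasi-likelihood, TMM factors, R 4.3.3) with Benjamini-Hochberg adjustment over the 10432 genes and a threshold of 0.05, and DESeq2 1.42.0 was an alternative. The genotype difference was the interaction term over 8 libraries. Counting intervals (95%) were exact conditional Clopper-Pearson intervals of pooled counts per library totals. The rest ran in Python 3.11.15 with pandas 2.3.3 and scipy 1.17.1. All scripts that test across genes were tested on simulated data. Gene positions are those of GENCODE vM21, and promoter windows those of RefSeq.

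The gene lists (36, and 1 added after seeing the data) and the members were chosen with earlier results of these data known. Named genes are the 12 largest rises and falls among 2-fold genes for which each library of the higher side had 100 or more expected counts, up to 4 members per described list with the largest difference under the same count limit, and 8 stress genes of the study. Other names are members that passed the 2-fold rule or the edgeR tests, named after their values were seen. Alternatives were another floor, fold, filter, pseudocount and scaling, thinning to the smallest library, a fit of all 10 MEF libraries and leaving out each library. CPM in place of TPM, the hour as a block in the interaction and removal of a lowess trend on GC content were chosen after seeing the data. Results of 1 gene are not reported here.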

Additional observations from a re-analysis of the deposited data

Results flagged for a closer look

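The shift from early to late Tg differed between WT and PERK −/− MEFs, by the edgeR interaction over 8 libraries at an adjusted p under 0.05, with 25 genes whose shift was higher in WT and 27 whose shift was lower. Nsdhl had a difference of the shifts of −2.19 (WT minus PERK −/−, log2). Rpl13a had one of 1.01 and ND4L, a mitochondrially encoded subunit of respiratory complex I, one of −1.70, with 650, 413, 349 and 317 TPM at the successive hours in WT and 162, 157, 291 and 406 TPM in PERK −/− MEFs. The numbers of these genes changed strongly when 1 library was left out, as given with the processing.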

How the results depend on the processing

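The late against early comparison had no pairs, with 1 library per time point. The edgeR calls (2 higher, 18 lower) became 93 and 119 with DESeq2, 0 and 8 with library totals, 0 and 0 with no TPM filter, 0 and 5 with a mean TPM of at least 5, 1 and 9 with counts thinned to the smallest library, and 0 and 0 with all 10 MEF libraries in 1 fit. Leaving out 1 library each gave 0 to 1850 higher and 0 to 2040 lower. The highest counts came without the 2 h library (1850 and 2040) and the next without 1 h (489 and 615), where the spread rests on 5 and 8 h alone, and without 5 or 8 h there were 1 and 0 or 0 and 0. The interaction calls (25 and 27) became 236 and 216 with DESeq2, the lower ones 68 with library totals, and 46 and 76 with a block that paired WT and PERK −/− libraries by hour (2 residual degrees of freedom, added after seeing the data). Leaving out 1 library each gave 0 to 410 and 0 to 362. The 2-fold calls (122 and 75) became 199 and 134 with a floor of 1 TPM, 541 and 306 at 1.5-fold and 23 and 9 at 3-fold, and 97 to 315 and 63 to 224 with 1 library left out, the highest without 2 h. The share of higher genes also above 0 in NIH3T3 cells, 68.9%, was 58.8% with a floor of 1 TPM and 78.3% at 3-fold. The list median of mitotic genes, −0.11, was 0.02 without the 1 h library and ranged from −0.2338 to 0.0224 with 1 library left out. The other alternatives, TMM or DESeq2 scaling of TPM, log2(TPM + 1), a higher or no filter, thinning, CPM and GC removal, kept the 2-fold counts within 1.5 times. With 1 library per time point, replicate cultures were not measured, and the p-values are no test against them. Genes under 4 TPM early or late cannot show their full fold.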
